A study of Drosophila melanogaster with 8 samples.

Results

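l(2)gl and p120ctn are genes for the polarity and the junctions of epithelial cells, and both gave lower signals in wing discs of BEAF-32 mutant larvae than in wildtype discs. They were chosen by the ratio between genotypes, as the transcripts that the authors' deposited table of changes of at least 1.5-fold lists under either name. This gave 2 transcripts of 2 genes, l(2)gl-PB (FBtr0078166, gene FBgn0002121) and p120ctn-PB (FBtr0111113, gene FBgn0015587), out of 4379 listed transcripts and 16637 transcripts on the array. Because a change between these genotypes chose them, their differences are given as a description with no test. The RNA was from wing imaginal discs of last-instar Drosophila melanogaster larvae. These discs are folded sheets of epithelium from which the wing and dorsal thorax of the adult develop. The mutant larvae were homozygous for a BEAF-32 mutation and matched in age to wildtype larvae, and the labels give the strain of both as Orgon R. BEAF-32 encodes an insulator protein of chromatin. The labels name no allele and there was 1 mutant genotype, so loss of BEAF-32 and any other difference between the stocks cannot be told apart. Each genotype had 4 one-colour arrays, named by a pair of numbers such as 1_2.

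The basolateral protein Lgl, made by l(2)gl, works with Scribble and Discs large to keep the apical Par and Crumbs proteins out of the lateral membrane, and it is itself pushed off the apical side when the kinase aPKC phosphorylates it. In flies l(2)gl is a tumour suppressor, since imaginal discs that lack it lose their layered form and overgrow. p120-catenin, made by p120ctn, binds the part of the cadherin tail next to the membrane in adherens junctions. In mammals it holds cadherin at the cell surface, while the fly gene is dispensable for viability and acts as a helper of the junction.

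Values are on the log2 scale, so 1 unit is a doubling of signal. Repeat arrays, those with the same genotype and first number, were averaged to 2 replicates per genotype, and means are given ± SD with n = 2. The median of an array was 9.364 to 9.433 and its lowest value 6.833 to 6.896. Repeat arrays correlated across transcripts at 0.9977 or more, wildtype arrays with different first numbers at 0.9662 to 0.97 and mutant ones at 0.9852 to 0.987. Separate animals or dissections are not stated for the replicates, so the p-values cover the spread of these samples alone, some of which may be technical. The BEAF-32 transcript averaged 8.44 ± 0.05 in mutant discs and 10.61 ± 0.57 in wildtype discs, and it fell by 2.17 on the log2 scale (limma, adjusted p = 0.029). Wildtype array 1_2 stood at 11.94 for BEAF-32, against 10.09 to 10.28 on the other wildtype arrays, and without it the fall was 1.71 (adjusted p = 0.012). The call was lost when repeat arrays formed a random block (limma, adjusted p = 0.16). It was also lost when either mutant replicate was left out, but without mutant replicate 1 calls were lost over the whole array.

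l(2)gl had log2 values of 6.94, 6.88, 6.88 and 6.91 on mutant arrays 1_1, 1_2, 2_1 and 2_2, against 13.03, 13.25, 12.80 and 12.89 on the same-numbered wildtype arrays. The groups did not overlap: the highest mutant array was 5.86 below the lowest wildtype array. Over the whole array 24.4% of transcripts had no overlap in that direction, and 13.1% are in the authors' deposited table as lower in the mutant. Among the genes the authors list, 89.4% had no overlap in either direction, so this is usual for a listed gene. The means were 6.90 ± 0.01 in mutant discs and 12.99 ± 0.21 in wildtype discs, a log2 difference of -6.09 or 68.2-fold. By first number the difference was -6.23 and -5.95.

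On every mutant array the l(2)gl transcript sat at the bottom of the scale. It lay 0.03 to 0.04 above the lowest value of the array, and only 2 to 12 of the 16637 transcripts were lower. On the wildtype arrays it stood above 93.5% to 96.0% of transcripts. A lower level than this could not have been recorded in the mutant, so the 68.2-fold difference is read against the bottom of the scale. Signal depends on the probes of a transcript as well as on its abundance, so these positions are not ranks of abundance. With limits set after its values were seen, l(2)gl was the 1 transcript of 2399 above 12 in wildtype discs that read under 7.1 on all mutant arrays. The next lowest of these was Sgs5, a salivary gland glue gene, with 7.23 in mutant discs and 14.73 in wildtype discs. In the order of all differences l(2)gl held place 5 from the lower end. Ahead of it were Sgs5, Sgs7, Eig71Ee and Fbp1, all markers of salivary gland or fat body.

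p120ctn had log2 values of 10.86, 10.65, 10.93 and 11.04 on mutant arrays 1_1, 1_2, 2_1 and 2_2, against 12.15, 12.34, 12.07 and 11.96 on the same-numbered wildtype arrays. Here too the mutant arrays were all lower than the wildtype arrays, with a gap of 0.92. The means were 10.87 ± 0.16 in mutant discs and 12.13 ± 0.16 in wildtype discs, a log2 difference of -1.26 or 2.39-fold. By first number the difference was -1.49 and -1.03. Unlike l(2)gl, the p120ctn transcript stayed well inside the range of the mutant arrays. It stood above 68.0% to 73.7% of transcripts there and above 85.9% to 88.6% on wildtype arrays. It held place 631 from the lower end in the order of all differences.

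**Figure D1:**
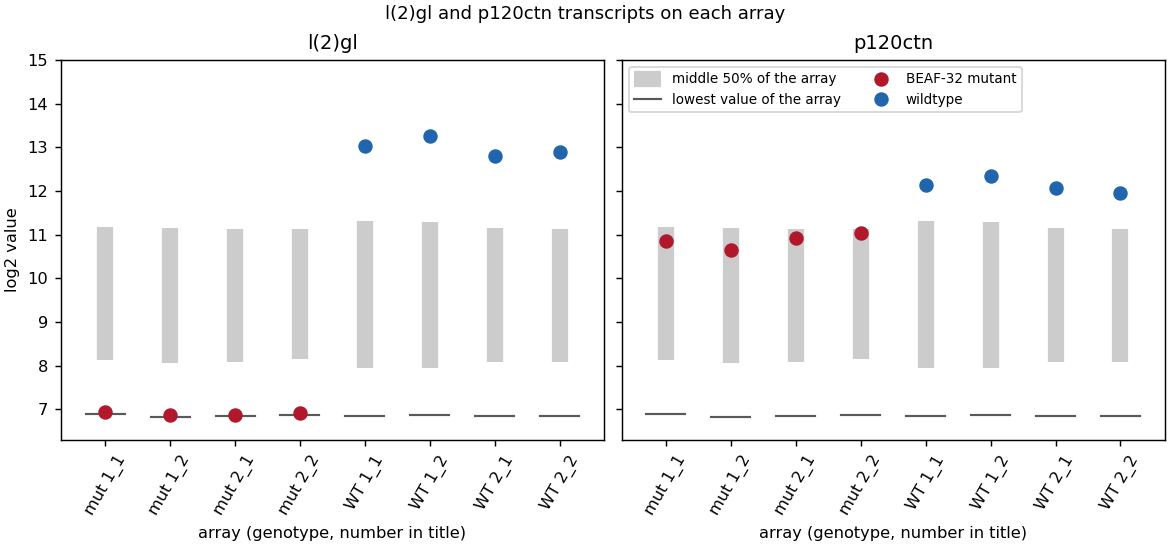
Log2 value of the l(2)gl transcript (left) and the p120ctn transcript (right) on each of the 8 arrays, mutant arrays in red and wildtype arrays in blue, with the middle 50% of all transcripts as a grey bar and the lowest value of the array as a line. l(2)gl reads 6.88 to 6.94 in the mutant, on the line, and p120ctn 10.65 to 11.04, inside the grey bar.

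The l(2)gl replicates differed by 0.02 in mutant discs, where values at the bottom of the scale have little room to vary, and by 0.29 in wildtype discs. The p120ctn replicates differed by 0.23 in mutant discs and by 0.23 in wildtype discs. Over all transcripts the median of this gap was 0.122 in mutant discs and 0.258 in wildtype discs. Repeat arrays of p120ctn differed by up to 0.21 in mutant discs (first number 1) and by up to 0.19 in wildtype discs, which is about as much as replicates did. The authors' list begins at 1.5-fold, and neither transcript was near that limit, with authors' ratios in the deposited table of 68.2 for l(2)gl and 2.39 for p120ctn (wildtype over mutant, so opposite in direction to the differences here).

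RefSeq annotates 11 transcripts for l(2)gl and 1 for p120ctn, and each gene had 1 listed transcript. The value table names transcripts by identifier only, so other l(2)gl transcripts on the array could not be picked out. No unlisted transcript lay more than 0.63 below wildtype. The difference of -6.09 was measured for l(2)gl-PB, the 1 transcript listed under the name of the gene. Whether the array held other l(2)gl transcripts is not known, so whether the difference is particular to this transcript was not tested.

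**Figure D2:**
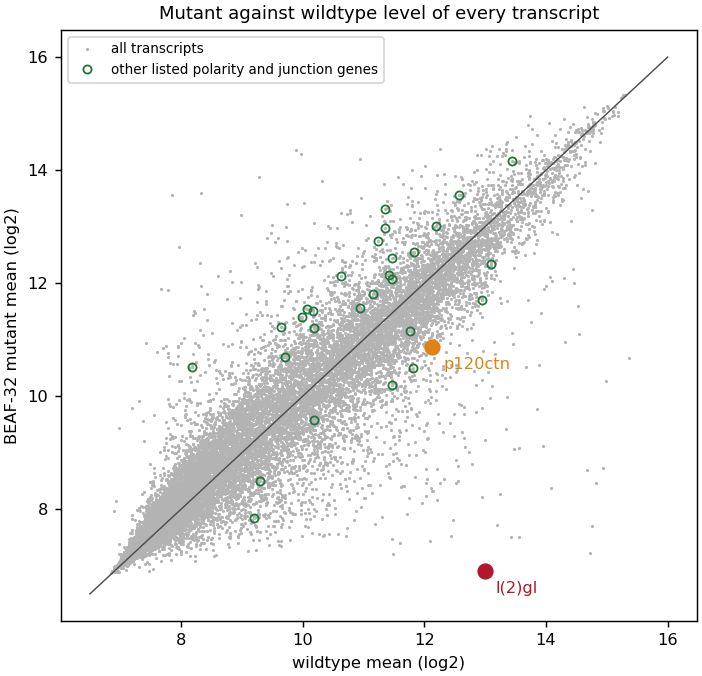
Mean log2 value in mutant discs (vertical axis) against wildtype discs (horizontal axis) for 16637 transcripts in grey, with the 28 other listed polarity and junction genes circled in green and equality as a line. l(2)gl lies at 6.90 in the mutant and 12.99 in wildtype, at the lower edge of the cloud, and p120ctn at 10.87 in the mutant and 12.13 in wildtype.

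Discs were bulk samples, in which fewer cells of a type and less RNA per cell cannot be told apart. Markers of other tissues moved with genotype. For comparison, 36.3% of all listed genes passed limma, 22.6% lower and 13.7% higher in the mutant. Of all transcripts 9.97% passed, 6.08% lower and 3.89% higher. All 10 listed of 12 salivary gland markers fell, and the log2 of their summed signal was 13.14 to 13.29 on mutant arrays against 17.59 to 17.72 on wildtype arrays. Of 8 fat body markers all were listed and lower, 4 fell, and the log2 sum was 13.23 to 15.12 in mutant discs against 17.18 to 17.23 in wildtype discs. Of 9 listed of 13 haemocyte markers 7 rose and 0 fell (15.32 to 15.44 in mutant discs against 13.38 to 14.04 in wildtype discs). Tracheal markers summed to 15.40 to 15.48 in mutant discs and 14.13 to 14.21 in wildtype discs, with 3 of 4 listed (of 6) rising and 1 falling. All 3 listed of 10 myoblast and muscle markers fell (10.71 to 11.03 in mutant discs against 12.36 to 12.52 in wildtype discs). The lowest marker of these lists in the mutant was Sgs5 at 7.23. Their part in the l(2)gl and p120ctn differences was not tested. Of 17 markers of the wing disc itself 8 were listed, all at 8.73 or more in the mutant, with a log2 sum of 14.58 to 14.71 in mutant discs and 14.90 to 15.12 in wildtype discs. Of these 8 markers 2 were above and 6 below wildtype, with a median log2 difference of -0.84, and 1 rose (wg, 1.08), 1 fell (hh, -1.27) and 6 did not pass.

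The genes whose values over the 8 arrays were most like those of each transcript were found by the root mean square difference after each transcript was centred on its own mean. For l(2)gl these were Sgs8 (0.137), Sgs5bis (0.148), Obp99b (0.201), Eig71Ee (0.224) and Fbp1 (0.227), where the median over all other transcripts was 3.08. Sgs8 and Sgs5bis belong to the salivary gland glue genes or their relatives, Obp99b encodes an odorant-binding protein, and Fbp1 is a receptor for storage proteins in the fat body. The mutant means of these 5 genes were 7.51 to 8.72. For p120ctn the closest were CG14183 (0.060), CG42673 (0.076), CG43755 (0.076), Ssb-c31a (0.080) and Mtp (0.087), with a median of 0.688 over all other transcripts. Mtp encodes the microsomal triglyceride transfer protein and Ssb-c31a a protein that binds single-stranded DNA. The measure takes in the difference between genotypes, so genes with a difference of like size come first by construction.

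**Figure D3:**
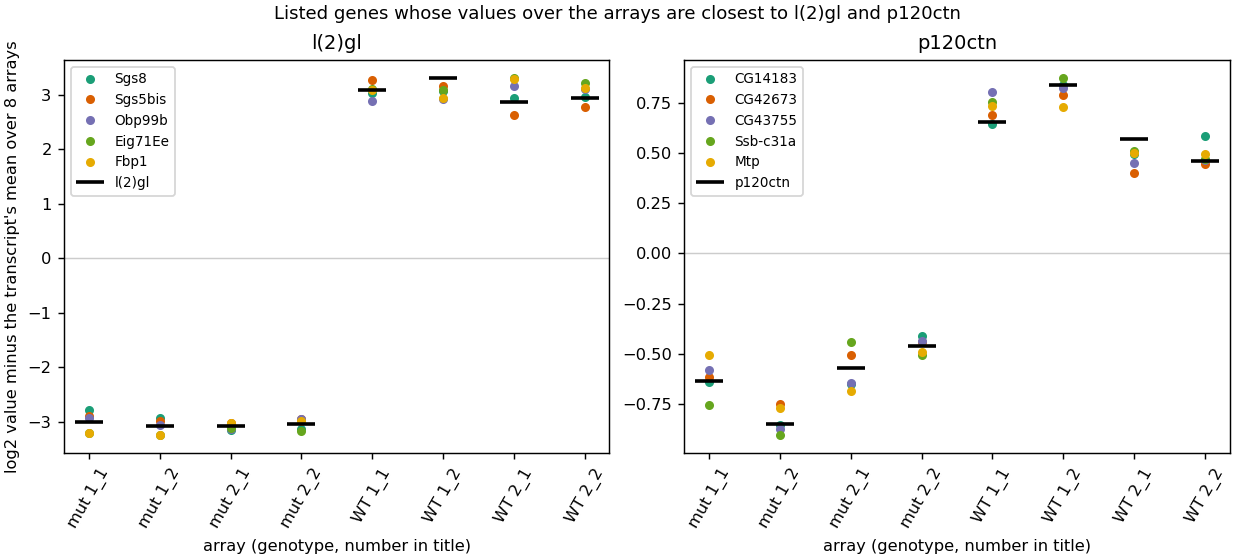
Log2 value minus the transcript's own mean over the 8 arrays, for l(2)gl (left) and p120ctn (right) as black bars and their 5 closest listed genes as coloured points, mutant arrays left of wildtype arrays. The points follow the bars on every array, with largest root mean square differences of 0.227 on the left and 0.087 on the right.

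The other genes of apicobasal polarity, cell junctions and basal adhesion come from lists of 88 genes in all, of which 28 besides l(2)gl and p120ctn were listed by the authors, with 35 transcripts. An unlisted gene could be below 1.5-fold, unnamed or not on the array. By limma over all 16637 transcripts 9 of the 28 rose, 3 fell and 16 did not pass. Over all transcripts 9.97% passed, 3.89% higher and 6.08% lower. Among 3806 listed genes, each by its transcript with the highest mean, 36.3% passed, 13.7% higher and 22.6% lower. The 28 genes lay above wildtype in 20 cases and below it in 8. Their median log2 difference was 0.77 against 0.06 over all transcripts, and listed genes had equal numbers above and below. The lists differed: the basal list had 9 genes above and 1 below, and the septate junction list without l(2)gl 2 above and 4 below. In the fits without mutant replicate 1 or without mutant replicate 2, 0 of the 28 passed limma (16 and 19 at an unadjusted p under 0.05). Without mutant replicate 1 calls were lost over the whole array too. All 28 kept their direction with arrays or replicates left out and under another normalization, the only alternatives that could change it. They were listed for a change of at least 1.5-fold, so this is no support for the directions.

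**Figure D4:**
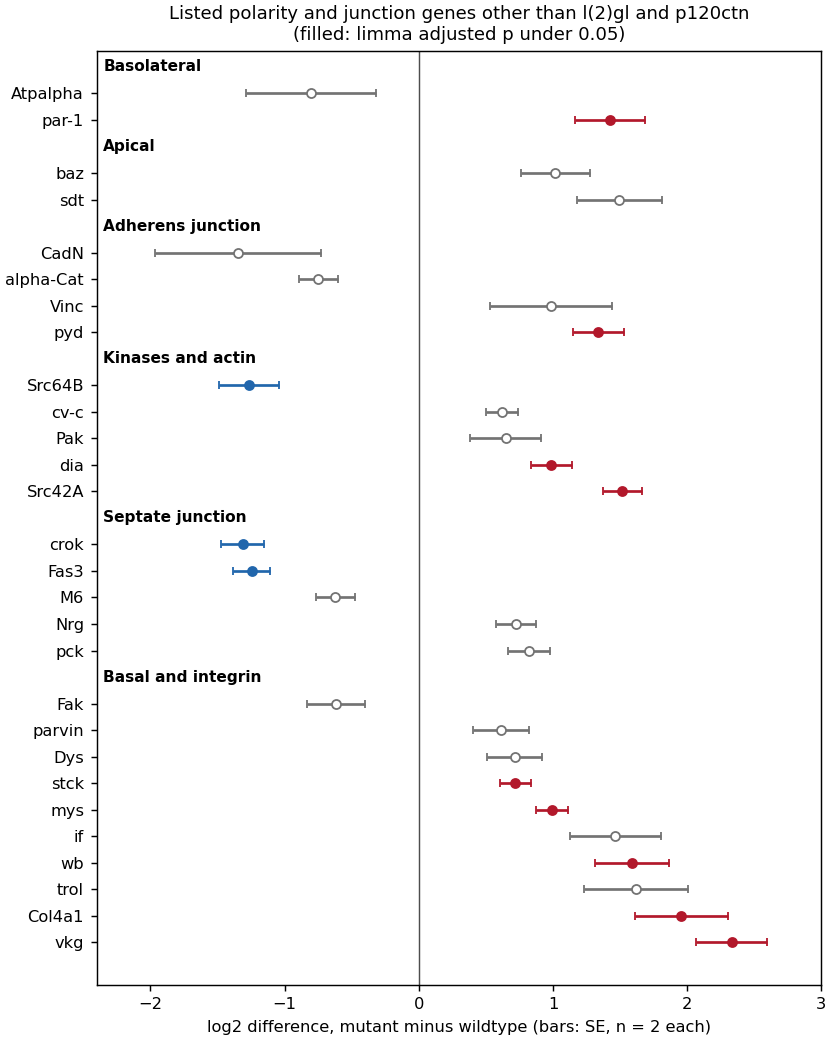
Log2 difference, mutant minus wildtype, of the 28 listed polarity and junction genes other than l(2)gl and p120ctn, each by its transcript with the highest mean, with SE bars and n = 2 per genotype. Filled points passed limma at an adjusted p under 0.05, 9 to the right of 0 in red and 3 to the left in blue.

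In the basolateral group, the proteins closest to Lgl in function, scrib and dlg1 were not listed. par-1, a kinase that keeps Bazooka off the lateral membrane, rose by 1.42 (SE 0.26, adjusted p = 0.048), with 11.40 ± 0.34 in mutant discs and 9.98 ± 0.34 in wildtype discs. Atpalpha, the catalytic subunit of the sodium pump, read 8.44 to 8.61 on mutant arrays, against 9.85 and 10.10 on wildtype arrays 1_1 and 1_2 and 8.48 and 8.75 on 2_1 and 2_2. Its groups overlapped, and it did not pass (-0.80, adjusted p = 0.33). Of 10 fixed genes of this group 3 were listed, l(2)gl included.

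On the apical side 2 of 10 genes were listed, both higher on all 4 mutant arrays than on any wildtype array, and neither passed. Of all transcripts 26.8% were higher in this way, and 89.4% of listed genes had no overlap in either direction. baz, the scaffold Bazooka of the Par complex, differed by 1.02 (adjusted p = 0.087), and sdt, the scaffold that binds Crumbs, by 1.49 (adjusted p = 0.064) and by 1.09 for its other listed transcript. The kinase gene aPKC, its partner par-6 and crb were not listed. In the list of kinases and phosphatase subunits known to act on Lgl or Bazooka, par-1 was the 1 gene of 7 that was listed.

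Around p120ctn in the adherens junction, 4 further genes of 9 were listed, and 1 passed. pyd, a scaffold that links junctions to actin, rose by 1.34 (SE 0.19, adjusted p = 0.031), with 11.51 ± 0.19 in mutant discs and 10.17 ± 0.25 in wildtype discs. alpha-Cat, which couples the cadherin complex to actin, was lower on all mutant arrays, at 12.34 ± 0.17 in mutant discs and 13.09 ± 0.04 in wildtype discs, and did not pass (-0.75, adjusted p = 0.054). Vinc, the actin linker vinculin, differed by 0.99 (adjusted p = 0.24). CadN, N-cadherin, averaged 7.85 ± 0.17 in mutant discs and 9.19 ± 1.24 in wildtype discs (adjusted p = 0.24), since the wildtype replicates stood at 10.07 and 8.32. shg, the E-cadherin to which p120-catenin binds, and arm, its beta-catenin, were not listed.

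Among kinases and actin regulators that act on junctions, the listed genes matched to Src family kinases went in opposite directions. Src42A, listed as CG14471-PB (gene FBgn0033049) and matched by synonym alone, rose by 1.52 (SE 0.15, adjusted p = 0.016). Whether its probes read the kinase transcript was not tested. Src64B fell by 1.27 (SE 0.22, adjusted p = 0.045). dia, a formin that builds actin filaments, rose by 0.99 (adjusted p = 0.036). cv-c differed by 0.62 (adjusted p = 0.053) and the kinase gene Pak by 0.65 (adjusted p = 0.20). The Src64B call was lost without wildtype replicate 1 and without wildtype array 1_2 (adjusted p = 0.052 in each), and the par-1 call without array 1_2 (adjusted p = 0.060).

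Septate junctions seal the lateral membrane below the adherens junction, where Lgl lies too. Of 25 genes besides l(2)gl 6 were listed, 2 fell, 0 rose and 4 did not pass. crok, needed to assemble the junction, fell by 1.31 (SE 0.16, adjusted p = 0.024), with 10.50 ± 0.21 in mutant discs and 11.82 ± 0.10 in wildtype discs. The adhesion protein gene Fas3 fell by 1.25 (SE 0.14, adjusted p = 0.020), with 11.71 ± 0.15 in mutant discs and 12.95 ± 0.02 in wildtype discs. M6 lay lower (-0.62, adjusted p = 0.079) and Nrg higher (0.72, adjusted p = 0.060). pck, a claudin-like protein gene, differed by 0.82 for pck-PA, its transcript with the higher mean (adjusted p = 0.053), while pck-PD passed at 1.54 (adjusted p = 0.049).

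On the basal side, where integrins hold the epithelium to its matrix, 10 of 17 genes were listed, 5 rose, 0 fell and 5 did not pass. The collagen IV genes vkg and Col4a1 rose by 2.33 (adjusted p = 0.021) and 1.96 (adjusted p = 0.045), and the laminin gene wb by 1.59 (adjusted p = 0.044). The other listed wb transcript, named CG32970-PA, differed by 0.62 with overlapping arrays and did not pass (limma, adjusted p = 0.27). The integrin beta subunit gene mys rose by 0.99 (SE 0.12, adjusted p = 0.023), at 13.56 ± 0.01 in mutant discs and 12.57 ± 0.06 in wildtype discs. stck, which encodes the integrin adaptor PINCH, rose by 0.72 (adjusted p = 0.040), and all 3 of its listed transcripts passed. if, an integrin alpha subunit gene, differed by 1.46 (adjusted p = 0.076). Haemocytes make collagen IV, and both collagen genes are also among the haemocyte markers. In the same discs 7 of 9 listed haemocyte markers rose, but both collagen genes are counted among the 7. Without both collagen genes 3 of 8 listed basal genes rose. The part of haemocytes in this group was not tested.

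The genes next to l(2)gl and p120ctn on the chromosome were read from the order of genes in RefSeq (assembly Release 6 plus ISO1 MT), because the sources used here give no build for the files. l(2)gl is next to the last annotated gene at the end of arm 2L. The gene beyond it toward the end, CR11023 (CG11023 in the deposited table, a pseudogene in RefSeq), read 7.237, 7.140, 7.159 and 7.255 on mutant arrays 1_1, 1_2, 2_1 and 2_2, against 7.736, 7.947, 8.001 and 7.980 on the same-numbered wildtype arrays. It fell by 0.72 (SE 0.13, adjusted p = 0.045), and its mutant values were close to the bottom of the scale. Of the nearest 10 genes on the other side 1 was listed, Cda5, a chitin deacetylase gene, which was higher in the mutant and did not pass (0.83, adjusted p = 0.088). CR11023 averaged 7.92 in wildtype discs, too near the bottom of the scale for a fall of the size seen for l(2)gl to be recorded. Of 717 listed genes on arm 2L 59.6% were below wildtype and 29.8% fell.

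p120ctn lies on arm 2R, and of its nearest 20 genes 7 were listed. Of these 7 genes 6 were below wildtype, 4 fell and 0 rose, with a median log2 difference of -0.996. No array of 1 genotype overlapped the other for any of the 7, as was so for 89.4% of listed genes. Over arm 2R 47.8% of 709 listed genes were below wildtype and 21.0% fell. Stlk, a Ste20-like kinase gene directly beside p120ctn, read 8.43, 8.47, 8.65 and 8.61 on mutant arrays 1_1, 1_2, 2_1 and 2_2, against 10.42, 10.54, 9.83 and 9.99 on the same-numbered wildtype arrays. It fell by 1.65 (SE 0.23, adjusted p = 0.030) for Stlk-PA, while Stlk-PB differed by -1.45 and did not pass (limma, adjusted p = 0.059). RNASEK, a ribonuclease gene, fell by 1.65 (SE 0.15, adjusted p = 0.016). Gprk1, a kinase gene for G protein-coupled receptors, fell by 1.36 (adjusted p = 0.039), and CG17683 fell by 0.86 (adjusted p = 0.041). The other listed transcripts CG17683-PE and CG17683-PC differed by -0.90 and -0.85 and did not pass (limma, adjusted p = 0.069 and 0.061). IntS3, an Integrator complex subunit gene, differed by -0.996 (adjusted p = 0.083) and CG17486, the neighbour on the other side of p120ctn, by -0.59 (adjusted p = 0.14). The gene after that, lncRNA:dntRL, was the exception with a higher value in the mutant (1.18, adjusted p = 0.052). The Gprk1 call was lost without wildtype replicate 1 (adjusted p = 0.067), and the CR11023 call without wildtype array 1_2 (adjusted p = 0.071). All 5 calls among neighbours of both genes were lost without either mutant replicate. This was not particular to them, since without mutant replicate 1 calls were lost over the whole array.

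**Figure D5:**
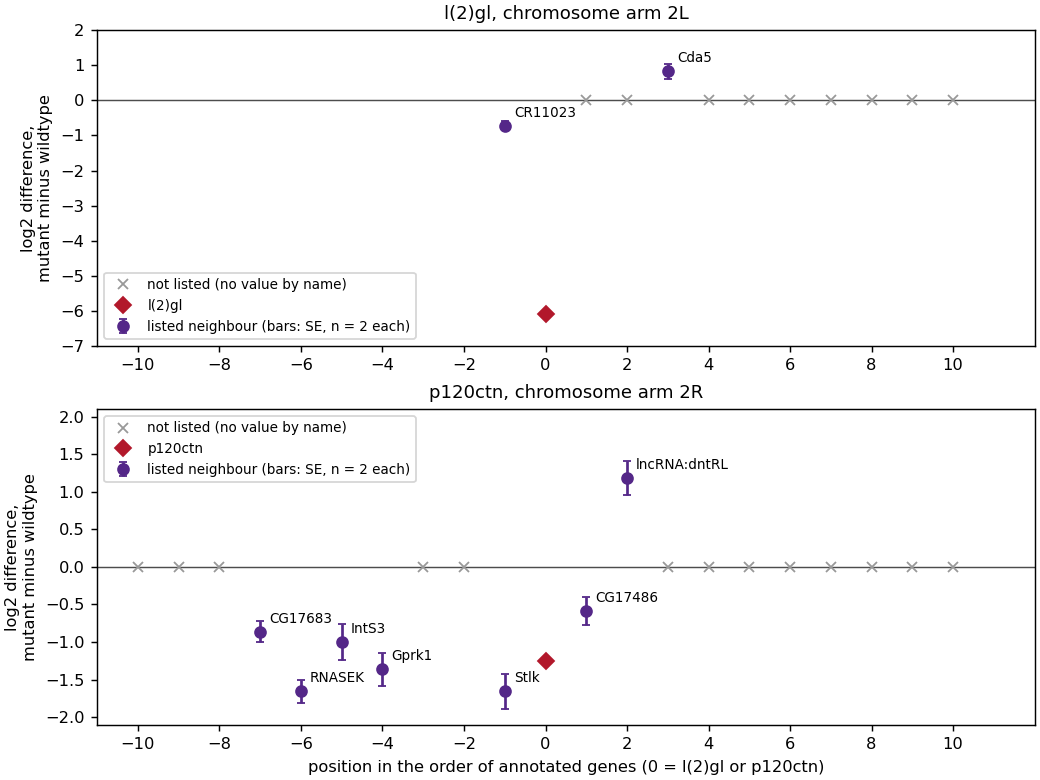
Log2 difference, mutant minus wildtype, of the genes around l(2)gl (top) and p120ctn (bottom) in annotation order, with SE bars and n = 2 per genotype, crosses for unlisted genes and diamonds for l(2)gl and p120ctn. The 2 listed neighbours of l(2)gl lie at -0.72 and 0.83, and 6 of 7 listed neighbours of p120ctn lie below 0.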

How the data were processed

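The authors deposited log2 values from NimbleGen Cy3 arrays, 1 for each transcript on each array. Per the submitters' processing notes the tools were RMA and Partek, with no version. RMA subtracts background, makes the arrays alike in distribution and combines probes, so a shift shared by most genes could be hidden. The deposited table of changes gives a ratio of wildtype over mutant, per the file headers, which matched the value table within 0.0001 on the log2 scale. Probe-level signals were not used here, and the number of arrays limits the precision.

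Names came from that table. Of 3850 names 2541 matched a RefSeq symbol, 1079 a synonym, and 230 were kept. Arrays sharing the first number were averaged, since the design text states 2 biological and 2 experimental replicates. limma 3.58.1 in R 4.3.3 (lmFit, eBayes, genotype only) tested all transcripts, with Benjamini-Hochberg adjustment at 0.05, and was checked on simulated data. The residual degrees of freedom were 2. The words "rose" and "fell" are kept for genes that passed. Genes named are l(2)gl, p120ctn, BEAF-32, listed pathway genes (at most 5 per list in full), the 5 closest by likeness and the nearest 10 on each side. The genes, lists and tests were chosen with earlier results of these data known. Alternatives covered averaging, blocks, left-out replicates, normalization, filter, variance prior and tested unit. Figures were drawn with matplotlib 3.10.9.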

Additional observations from a re-analysis of the deposited data

Results flagged for a closer look

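Over 40 genes the 4 arrays of each genotype were searched for an array far from the other 3, and 2 of 80 groups had one. The limit used marks about 1 in 20 groups of 4 independent values. Repeat arrays are not independent, so the count cannot be set against chance. BEAF-32 read 11.94 on wildtype array 1_2, with the other wildtype arrays at 10.09 to 10.28. cv-c read 11.35 on wildtype array 2_2, with the other wildtype arrays at 11.49 to 11.51. l(2)gl and p120ctn had no such array in either genotype.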

How the results depend on the processing

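The difference of l(2)gl stayed between -6.24 and -5.95 and that of p120ctn between -1.37 and -1.14 with each replicate left out. With 2 replicates, leaving 1 out always moves a mean by less than the SD of its genotype. Refits of the same values with other averaging, blocks, filter, variance prior or tested unit return the same difference. These ranges are therefore no check of stability. Without wildtype array 1_2 or with another normalization the differences could move, and neither moved by more than its wildtype SD. The counts of calls were free to move in every fit. limma called 1659 transcripts, against 12892 when arrays sharing the second number were averaged, 8166 with 8 separate arrays and 3908 when repeat arrays formed a random block. With replicates left out the count ran from 0 to 5333, the 0 being without mutant replicate 1 (2353 at an unadjusted p under 0.05), and 5333 without wildtype replicate 2. The 12 of 28 polarity and junction genes became 28, 27 and 24 in those first 3 fits, 19 with an intensity trend, and 0 to 22 with replicates left out (0 without either mutant replicate, 19 and 22 without wildtype replicates 1 and 2). With the first number as a replicate block, which the labels do not say pairs the samples (deviations of same-numbered replicates correlated at 0.302), it was 20, with all 12 among them, and 2394 transcripts. With 1 transcript per gene 8 of the 12 passed, and par-1, Src64B, wb and Col4a1 missed at an adjusted p of 0.051 to 0.055. Leaving out wildtype array 1_2, an alternative chosen after seeing the data, gave 1530 transcripts and 10 genes. For the other named genes 344 of 493 recomputed values kept their side of the threshold, 102 newly passed, 47 no longer passed and 0 changed sign. A sign could change only with samples left out or under another normalization, since the other fits return the same difference. The cause of the gained and lost calls was not tested.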
